A study of Mus musculus with 5 samples.

Results

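Immune checkpoint ligands and receptors were examined in RNA-Seq data of mouse Lewis lung carcinoma (LLC). The set was 10 genes, 5 ligands (CD274, PDCD1LG2, CD80, CD86 and CD47) and 5 receptors (PDCD1, CTLA4, LAG3, HAVCR2 and TIGIT), and its members were found by symbol. Of the 10, 9 had a row in each of the 3 tables that were joined, among 13979 symbols shared by those tables. LAG3 was the exception and is described on its own. There were 5 groups with 1 library each: Control, BMN (BMN673, an inhibitor of the DNA repair enzyme PARP), PAZA (a polymer that carries azacytidine, an inhibitor of DNA methyltransferases), and the combination BMN/PAZA at a low and at a high dose. The sample labels describe LLC cells in culture that were treated for 72 h, whereas the study's methods describe LLC tumors of mice collected the day after the final treatment. With 1 library per group there were no replicates and no spread between samples, so no test was run and each difference below compares 2 libraries, not the treatments themselves.

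Checkpoint ligands sit on tumor cells and antigen-presenting cells and bind receptors on T cells, NK cells and phagocytes. PD-L1 (CD274) and PD-L2 (PDCD1LG2) bind PD-1 (PDCD1), which dampens signals of the T cell receptor. CD80 and CD86 feed either the activating receptor CD28 or the inhibitory receptor CTLA-4, which binds them more tightly. CD47 binds SIRPA on macrophages and holds back phagocytosis. LAG-3, TIM-3 (HAVCR2) and TIGIT are further inhibitory receptors, found on activated T cells and, for TIM-3, also on macrophages and dendritic cells. In tumors, PD-L1 is induced by interferon gamma through the kinases JAK1 and JAK2 and the factor IRF1.

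DNA methyltransferases, which azacytidine inhibits, act mainly on cytosines that precede guanines, so the CG content of the stretch before each gene's RefSeq start is given as context; methylation was not measured here. RefSeq promoter entries (GRCm38.p6) matched 8 of the 10 genes, with none for Lag3 and Cd86. In the 250 bases before that start, Cd47 held 30 CG dinucleotides, Cd274 11, Ctla4 7, Tigit 5, Pdcd1lg2, Cd80 and Pdcd1 3 each, and Havcr2 2, against a median of 6 over 32851 promoters. As many as in Cd47 were present in 5.94% of those promoters, and as many as in Cd274 in 35.6%. The 3 ligand stretches below run from CG-rich to CG-poor and belong to the ligand with the highest level, the ligand that differed most from Control, and the ligand that differed most between BMN and the low dose. CG dinucleotides are in capitals. These starts lie within 38 bases of the outermost GENCODE start of the gene, except for Cd47, Ctla4 and Cd80, whose RefSeq starts lie 55121, 22025 and 3372 bases inside it. The Cd47 stretch (an entry with a second start 7 bases on held 31) lies at chr16:49855404-49855653, that of Cd274 at chr19:29367188-29367437 and that of Cd80 at chr16:38458683-38458932, all on the plus strand.
Cd47: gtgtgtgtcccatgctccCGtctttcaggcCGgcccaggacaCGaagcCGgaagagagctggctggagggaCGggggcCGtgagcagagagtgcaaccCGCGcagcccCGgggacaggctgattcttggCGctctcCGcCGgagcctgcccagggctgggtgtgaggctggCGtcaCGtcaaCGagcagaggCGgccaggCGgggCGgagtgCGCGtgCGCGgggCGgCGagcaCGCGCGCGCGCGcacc
Cd274: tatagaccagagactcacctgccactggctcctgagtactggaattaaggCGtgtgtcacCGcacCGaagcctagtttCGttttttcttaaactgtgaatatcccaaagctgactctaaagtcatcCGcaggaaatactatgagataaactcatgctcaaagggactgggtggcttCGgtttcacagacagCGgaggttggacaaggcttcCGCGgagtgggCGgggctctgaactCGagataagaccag
Cd80: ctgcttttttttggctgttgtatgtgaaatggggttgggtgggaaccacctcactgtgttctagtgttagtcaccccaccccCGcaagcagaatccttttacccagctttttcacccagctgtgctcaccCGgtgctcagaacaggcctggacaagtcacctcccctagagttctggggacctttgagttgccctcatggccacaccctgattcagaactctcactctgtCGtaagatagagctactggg
Cd274 and Pdcd1lg2 are neighbors on chromosome 19 (29367455 to 29388095 and 29410919 to 29471161, GENCODE M21 on GRCm38), with 22823 bases between them.

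The authors deposited 5 tables of 2 libraries each, whose headers name no unit and whose values were taken to be FPKM, that is, fragments scaled by gene length and by library size. Control and PAZA were read from their joint table, BMN and the high dose from theirs, and the low dose from the table it shares with the high dose. Each library was then scaled to sum to 1000000 over the 13979 shared symbols, which gives the "level" used below. Levels are per length of gene and can be set side by side between genes. They cross tables that were scaled separately by the authors, and the depth behind them is unknown, as the tables hold no counts. The RNAs MT-RNR1, MT-RNR2 and RN7SK together took between 29.4% and 38.1% of a library's total.

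CD47 was the most abundant of the 9 genes, at a mean level of 153 over the 5 libraries and above 95.2% of the shared symbols. HAVCR2 followed at 19.2 and CD274 at 11.9. CD86 (7.12), TIGIT (5.38), CD80 (4.32) and CTLA4 (2.72) lay lower, and PDCD1 (0.625) and PDCD1LG2 (0.594) lay near the bottom, above only 15.7% and 15.2% of symbols. Of the 9 genes, 7 reached a level of 1 in all 5 libraries, and 8 did so in 1 library or more, with PDCD1LG2 below 1 throughout. PAZA was the highest library for 3 genes (PDCD1LG2, CD86 and TIGIT), BMN for 2 (CD80 and CTLA4), the low dose for 2 (CD47 and HAVCR2), Control for CD274 alone and the high dose for PDCD1 alone. Control was the lowest library for 0 of the 9 genes. The orders of CD274 and CD86 held only for the tables used, as described below. Of the 36 steps between neighbors in these orders, 18 were below 1.2-fold, and no replicate spread exists to judge any of them.

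**Figure D1:**
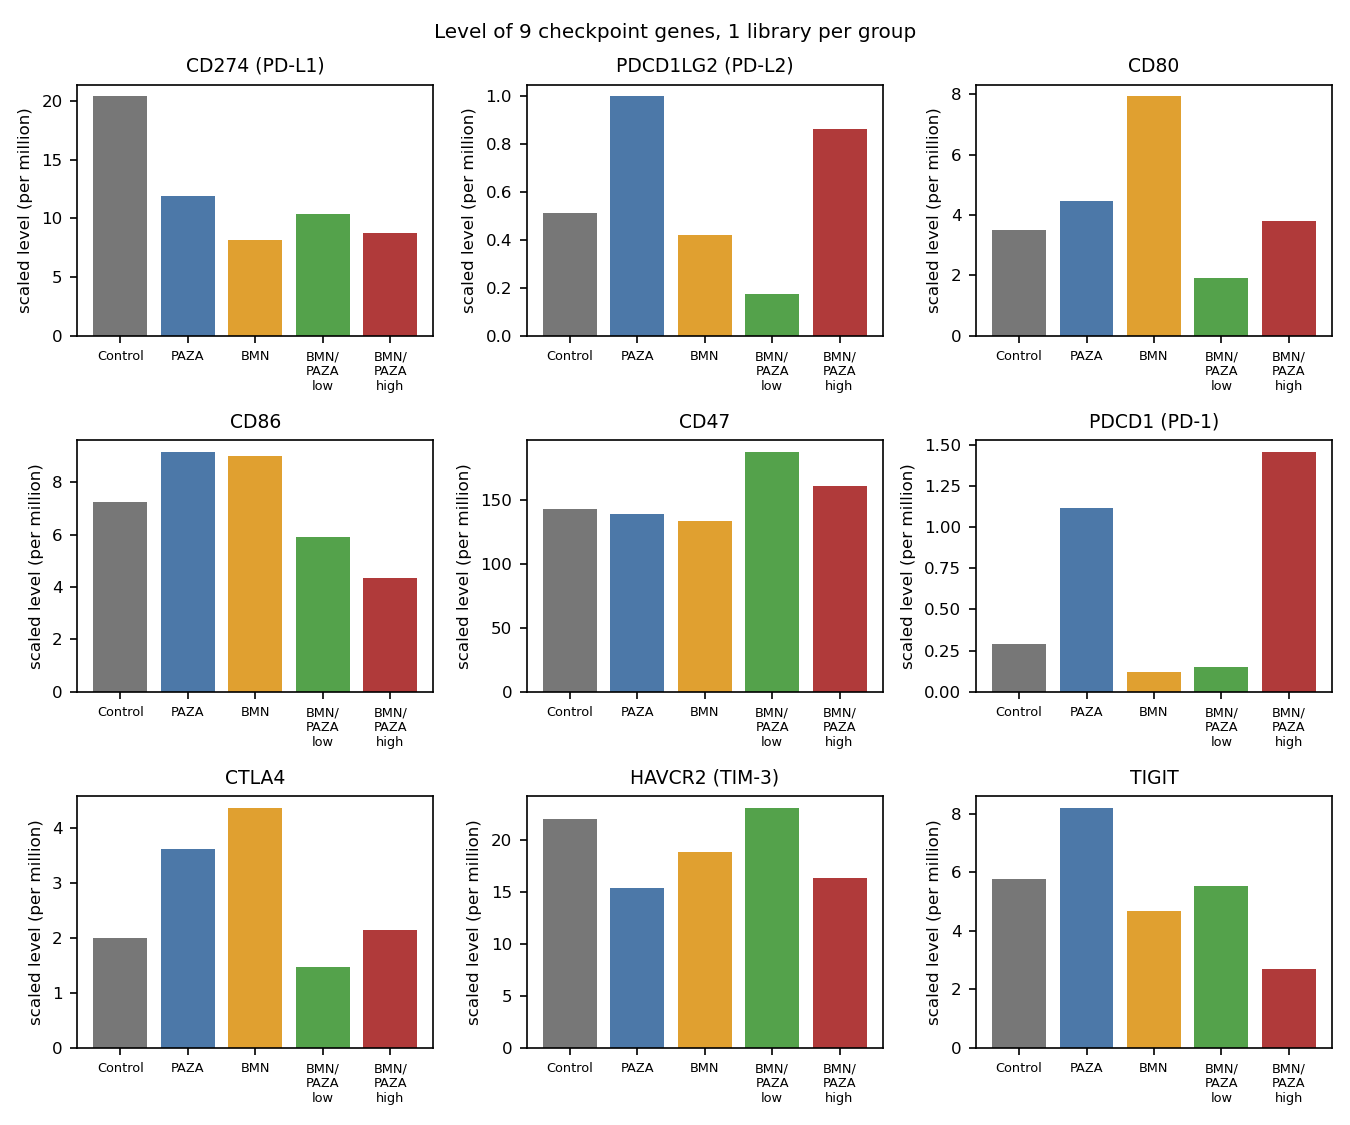
Level of each of the 9 genes (scaled value, linear axis from 0, own axis for each gene) in the 5 libraries, 1 bar per library and no error bars because each group has 1 library. CD274 stands at 20.4 in Control and between 8.11 and 11.9 elsewhere, whereas CD47 stays between 134 and 187.

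In the tables used, CD274 was highest in Control and lower in all 4 treated libraries. Its level was 20.4 in Control, 11.9 with PAZA, 10.4 with the low dose, 8.78 with the high dose and 8.11 with BMN. The step from Control to PAZA was 1.71-fold, and the 3 steps among treated libraries were 1.08-fold to 1.18-fold. Differences are given as log2(level + 1) in the first library minus the second, and a gene is called past 2-fold at 1 or beyond. Against Control, the difference of CD274 was -1.23 with BMN and -1.13 with the high dose, both past 2-fold, and -0.91 with the low dose and -0.73 with PAZA, both short of it. With libraries scaled by their median ratio to Control instead, the high dose came to -0.90 and was no longer past 2-fold, and BMN to -1.31. All 4 comparisons use the same Control library, whose CD274 value stands in 1 table only and could not be checked against another.

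The level of CD274 in the low dose depended on which table it was read from. Between tables, values of 1 library should differ by 1 constant, and for BMN and the high dose the members' values were identical in both of their tables. For the low dose and PAZA, 7 of the 9 genes kept to the constant within 0.5%, and CD274 and CD86 did not. That is 22.2% of the 9 genes, beside 2.67% (373) of the 13979 shared symbols. In the table of the low dose with BMN, the low-dose values of CD274 and CD86 were both 2-fold those in the table of the 2 doses after the constant, as were 170 of 15467 symbols. In that table CD274 stood at 12.1 FPKM in the low dose and 4.22 in BMN, a difference of 1.33 as deposited, where the joined levels gave 0.32.

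The table of PAZA with the low dose departed in another way. Its PAZA value of CD274, 5.78 FPKM, equalled the low-dose value of the table of the 2 doses after the constant. Its low-dose value, 10.4 FPKM, equalled 1.5 times the PAZA value of the table with Control after the constant. CD86 showed the same arithmetic, with 3.30 FPKM under PAZA and 8.001 under the low dose. On the common scale, CD274 in the low dose was thus 10.4, 20.7 or 18.7, and CD86 5.91, 11.8 or 14.3, depending on the table. On that scale the difference of CD274 between the low dose and Control was -0.91, 0.02 or -0.12. Between the low dose and PAZA it was -0.18 in the joined levels. From the FPKM values of the deposited table of both, which are not on that scale, it was 0.75. How these values arose was not tested. The BMN and high-dose values of CD274, and so its 2 calls against Control, do not use these columns.

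**Figure D2:**
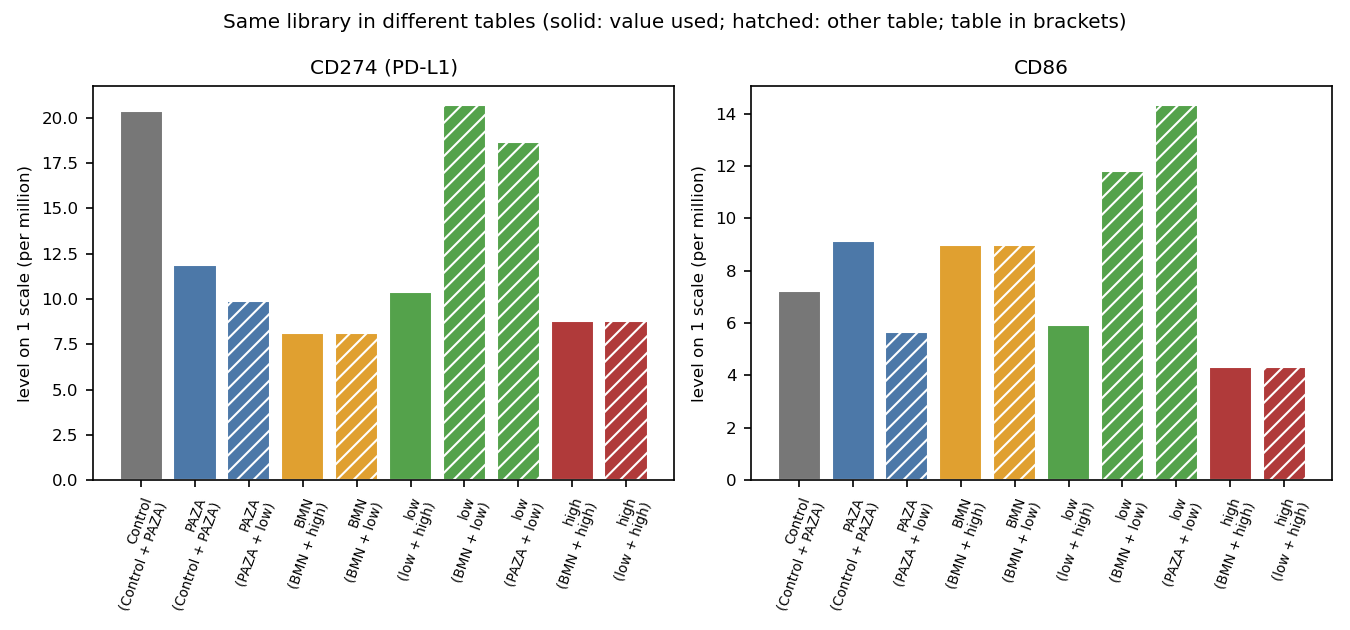
Level of CD274 and CD86 (on 1 scale) for every library in every table that holds it; solid bars are the values used, hatched bars come from the other tables, and each table is named in brackets by its libraries. BMN and the high dose agree between tables, whereas the low dose of CD274 is 10.4, 20.7 or 18.7.

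Of the other ligands, PDCD1LG2, which shares the PD-1 receptor with CD274, was at a level of 0.513 in Control, 0.997 with PAZA, 0.421 with BMN, 0.176 with the low dose and 0.863 with the high dose. Its order was unlike that of its neighbor CD274, with PAZA and the high dose above Control. The ratio of CD274 to PDCD1LG2 was 39.7 in Control, 11.9 with PAZA, 19.3 with BMN, 58.9 with the low dose and 10.2 with the high dose. With the CD274 values of the other tables it was 118 or 106 with the low dose and 9.93 with PAZA. At levels below 1 the log2(level + 1) scale compresses changes, so the differences of PDCD1LG2 ran only from -0.76 (low dose against PAZA) to 0.40 (PAZA against Control), although the levels spanned 5.67-fold.

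CD80, the B7 ligand that is induced on activated antigen-presenting cells, was highest with BMN and lowest with the low dose. Its level was 3.51 in Control, 4.46 with PAZA, 7.93 with BMN, 1.92 with the low dose and 3.79 with the high dose. The difference between the low dose and BMN was -1.62, the widest of any member in any comparison. BMN against Control gave 0.99, just short of 2-fold, although the ratio of the levels was 2.26. CD80 kept to the constants in all tables, and the table that holds BMN and the low dose as deposited placed it past 2-fold in the same direction.

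CD86, the B7 ligand that antigen-presenting cells carry at rest, varied less. Its level was 7.23 in Control, 9.13 with PAZA, 9.002 with BMN, 5.91 with the low dose and 4.34 with the high dose. BMN and PAZA stood side by side, and both BMN/PAZA libraries lay below Control. For PAZA and the low dose this held only in the tables used. Read from the table of PAZA with the low dose, PAZA stood at 5.65, below Control, with a difference of -0.31 in place of 0.30, and the low dose stood above Control in both of its other tables. The ratio of CD80 to CD86 was 0.486 in Control, 0.488 with PAZA, 0.881 with BMN, 0.324 with the low dose and 0.873 with the high dose. With the CD86 values of the other tables it was 0.789 with PAZA and 0.162 or 0.134 with the low dose.

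CD47 varied least, by 1.40-fold from the lowest to the highest library. Its level was 143 in Control, 139 with PAZA, 134 with BMN, 187 with the low dose and 161 with the high dose. Both combination libraries stood above the 3 others, with differences from Control of 0.39 and 0.17, and no comparison reached 2-fold. SIRPA, its receptor on macrophages, was at 27.1, 32.5, 44.9, 27.8 and 26.0 in Control, PAZA, BMN, the low dose and the high dose. The ratio of CD47 to SIRPA was therefore 5.27, 4.28, 2.98, 6.74 and 6.204 in the same order, lowest with BMN.

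Among the receptors, PDCD1 was close to the lower end of the data. Its level was 0.287 in Control, 1.12 with PAZA, 0.118 with BMN, 0.148 with the low dose and 1.45 with the high dose. PAZA and the high dose stood apart from the 3 other libraries, and the whole range was 12.3-fold. The difference of the high dose from BMN was 1.13 and that of the low dose from the high dose was -1.10, both past 2-fold, and the high dose differed from Control by 0.93, or by 1.08 under the median ratio scaling, which is past 2-fold. As deposited, without scaling to a common sum, neither call stood, at 0.80 for the high dose against BMN and -0.53 for the low against the high dose. In the latter table the median of all symbols was 1.44, so PDCD1 still stood well below it, and in the former it was -0.10. A gene at this level rests on few fragments, and the counting error could not be computed.

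CTLA4 had a level of 2.01 in Control, 3.62 with PAZA, 4.36 with BMN, 1.48 with the low dose and 2.14 with the high dose. Its order of libraries was that of CD80, which is one of its ligands, namely BMN, PAZA, high dose, Control and low dose. The difference of the low dose from BMN was -1.11, just past 2-fold and just short of it (-0.98) under the median ratio scaling and within the deposited table of both libraries (-0.81), and it was 0.83 for BMN against Control and 0.62 for PAZA against Control. CD28, the activating receptor for the same ligands, stood at 25.2 in Control, 11.1 with PAZA, 8.77 with BMN, 14.7 with the low dose and 10.5 with the high dose. CTLA4 over CD28 was 0.0797 in Control, 0.327 with PAZA, 0.497 with BMN, 0.101 with the low dose and 0.203 with the high dose. CD28 stood above the summed T cell markers given below in every library but PAZA, and which cells carried it was not tested.

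HAVCR2 was the most abundant receptor and the second least variable gene of the set, with a highest level of 23.1 and a lowest of 15.4. Its level was 22.0 in Control, 15.4 with PAZA, 18.9 with BMN, 23.1 with the low dose and 16.4 with the high dose. LGALS9, which encodes a ligand of TIM-3, lay at 19.5, 19.9, 26.7, 22.8 and 20.8 in the same order of libraries.

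TIGIT had a level of 5.77 in Control, 8.18 with PAZA, 4.69 with BMN, 5.54 with the low dose and 2.70 with the high dose. Its difference from Control was 0.44 with PAZA and -0.87 with the high dose. CD226, the activating receptor that competes with TIGIT for ligands, stood at 3.82 in Control, 1.08 with PAZA, 0.347 with BMN, 2.99 with the low dose and 0.566 with the high dose. CD226 was thus past 2-fold below Control in PAZA, BMN and the high dose, at -1.21, -1.84 and -1.62. PVRIG, a further receptor of this family, was at 2.23 in Control, 0.270 with PAZA, 0.682 with BMN and 0.279 with the high dose, and was listed at 0 in the low dose.

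LAG3, a receptor for MHC class II, was listed in the 3 tables without the high dose. It stood at 0.553 FPKM in Control, 0.548 FPKM with PAZA in the same table and 0.555 FPKM with PAZA in the table with the low dose. It was listed at 0 for BMN and for the low dose, and it was not listed in either table with the high dose, so no level was computed.

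Across the 8 comparisons, which share libraries, 6 of the 72 differences of the 9 genes (8.33%) were past 2-fold, beside 7.30% of those of all symbols. PAZA against Control had 0 genes higher and 0 lower, where 3.47% of all symbols were higher and 3.53% lower past 2-fold. The median difference of the 9 genes was 0.30 and that of all symbols -0.07, and 6 of the 9 were above 0. BMN against Control had 0 higher and 1 lower (CD274), with 4.66% and 2.25% of all symbols, and medians of -0.10 for the 9 genes and 0.09 for all.

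For the combination, the low dose against Control had 0 higher and 0 lower, with 3.65% and 3.54% of all symbols, and 7 of the 9 genes were below 0 at a median of -0.25 in the tables used, where that of all symbols was -0.03. With the low dose from the table with BMN, CD86 stood at 0.64 and CD274 at 0.02. The high dose against Control had 0 higher and 1 lower (CD274), with 3.2% and 4.95% of all symbols. Its median was 0.06 for the 9 genes and -0.17 for all symbols. These 4 comparisons share the Control library.

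The low dose against BMN, which sets the combination beside BMN given without PAZA, had 0 higher and 2 lower (CD80 and CTLA4), with 3.22% and 5.86% of all symbols. CD274, at 0.32 here, was past 2-fold higher in this comparison when the low dose was read from the table with BMN (1.23) or with PAZA (1.09). The low dose against PAZA had 0 higher and 0 lower, with 2.45% and 2.78%. Its median was -0.55 for the 9 genes and 0.03 for all symbols, with CD47 and HAVCR2 above 0. With the low dose read from the table with PAZA, CD274 (0.59) and CD86 (0.58) were above 0 as well. The high dose against BMN had 1 higher (PDCD1) and 0 lower, with 2.33% and 6.89%. The low dose against the high dose had 0 higher and 1 lower (PDCD1), with 3.38% and 2.34%, and the widest positive value was that of TIGIT at 0.82. With 9 genes, 1 call moves the share by more than any of these background shares, so the counts are a description only. The shares of symbols above and below depended on the scaling. Under the median ratio scaling, the symbols past 2-fold higher and lower went from 485 and 493 to 616 and 393 for PAZA against Control, from 438 and 677 to 671 and 413 for the high dose against Control, from 447 and 813 to 658 and 476 for the low dose against BMN, from 318 and 940 to 586 and 450 for the high dose against BMN, and from 472 and 327 to 379 and 453 for the low against the high dose. Relative to the median of all symbols, CD274 stood at -1.32 with BMN and -0.95 with the high dose against Control, and CD80 and CTLA4 at -1.48 and -0.98 in the low dose against BMN.

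**Figure D3:**
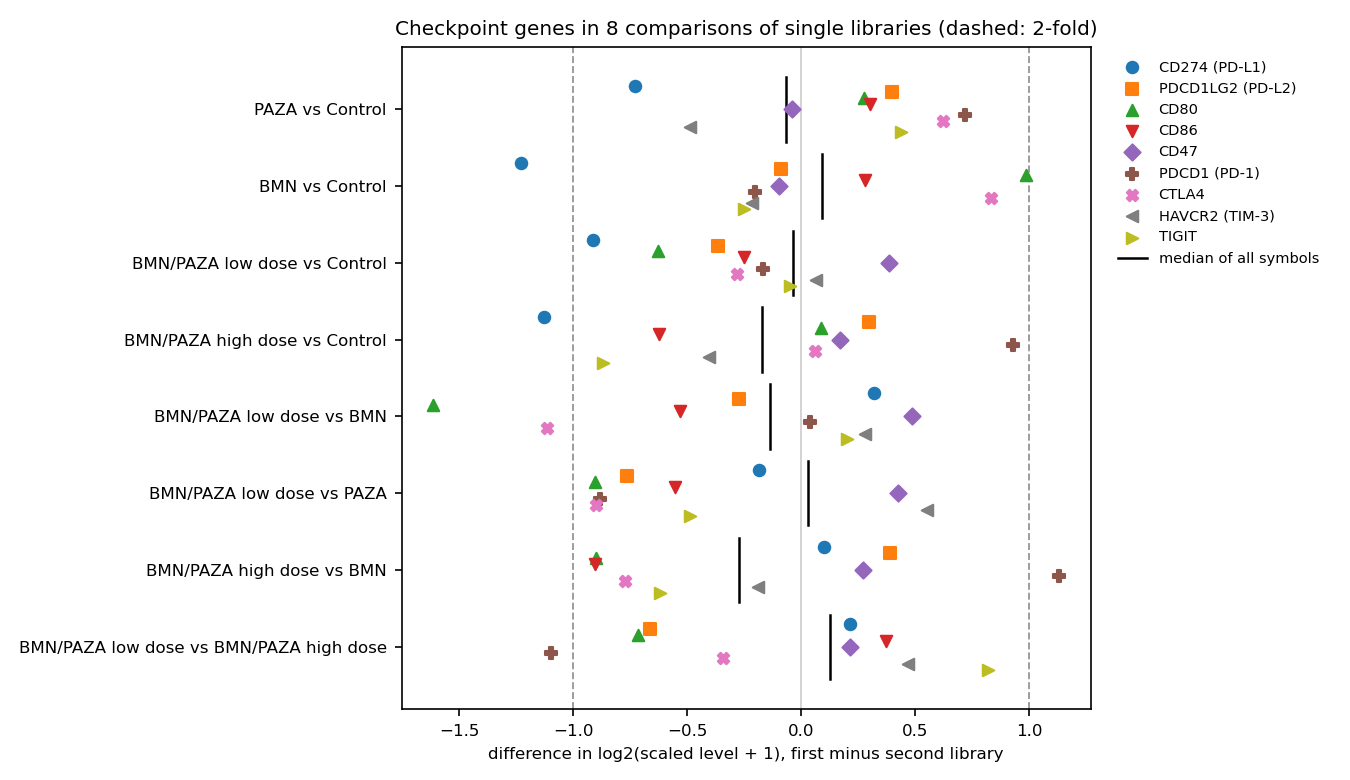
Difference in log2(level + 1) of the 9 genes (symbols by gene) in the 8 comparisons of single libraries, with the median of all symbols as a black bar and 2-fold as dashed lines. CD274 lies left of the line for BMN (-1.23) and the high dose (-1.13) against Control, CD80 (-1.62) and CTLA4 (-1.11) for the low dose against BMN.

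Bulk RNA does not separate fewer cells of a type from less RNA per cell, and markers of the cells that carry these genes had unequal sums between libraries. Markers of leukocytes (TYROBP at 38.3 in Control), macrophages (MRC1 at 189), fibroblasts (COL3A1 at 208) and endothelium (PECAM1 at 18.7) were all present. These are markers of tumor tissue, as described in the study's methods, and not of LLC cells alone in culture, as described in the labels. Macrophage markers (8 of 8 measured) summed to a level of 410 in Control, 435 with PAZA, 476 with BMN, 419 with the low dose and 329 with the high dose. Of 5 markers of normal lung epithelium, SFTPC, SFTPB, SFTPA1 and SCGB1A1 were listed at 0 in the single table that lists them, that of BMN with the low dose, and AGER was listed at 0.351 FPKM in the low dose (table with BMN) and at 0 in PAZA, BMN and the high dose, with no row in the table of Control. The B cell marker MS4A1 was listed in the table of BMN with the low dose alone, at 0 in both.

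T cell markers (6 of 7 measured) summed to 13.6 in Control, 16.1 with PAZA, 7.73 with BMN, 9.66 with the low dose and 4.04 with the high dose, a range in which CD3G and TRBC2 were the largest parts. The markers were low and did not share 1 order. With the high dose, CD3E was at 0 and CD8A at 0.144, below Control, whereas CD4 (0.861 against 0.515) and CD3D (0.176 against 0) were above it. The ratios to the T cell sum therefore rest on a small and mixed sum. TIGIT, set per 100 of that sum, ran from 42.4 in Control and 50.7 with PAZA to 60.6 with BMN, 57.3 with the low dose and 66.9 with the high dose, a narrower range than its own level. CTLA4 per 100 was 14.7 in Control, 22.5 with PAZA, 56.4 with BMN, 15.3 with the low dose and 53.0 with the high dose. PDCD1 per 100 was between 1.53 and 6.92 in 4 libraries and 36.0 with the high dose, whose T cell sum was the lowest. Regulatory T cell markers, which carry CTLA4 at high level, summed to 6.98, 7.13, 8.35, 8.66 and 4.88 in Control, PAZA, BMN, low dose and high dose, most of it IKZF2 at 6.32, 6.06, 6.65, 7.62 and 4.07. FOXP3 was at 0.246, 0.838, 1.01, 0.307 and 0.507 and IL2RA at 0.416, 0.232, 0.687, 0.739 and 0.303, so the 3 markers did not share 1 order. NK cell markers (6 of 6), the other lymphocytes that carry TIGIT, summed to 34.0 in Control, 20.7 with PAZA, 22.3 with BMN, 20.6 with the low dose and 16.3 with the high dose. In the low dose against Control, 5 of the 6 were lower, with GZMA at 4.01 against 14.0 and PRF1 at 0.906 against 6.47. KLRD1 was the 1 higher, at 3.27 in Control, 6.31 with PAZA and 10.5 with the low dose, a difference of 1.43 for the low dose. KLRK1 and GZMA of that list were off a constant, and with their values in the other tables the low-dose sum was 28.0 or 29.3.

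**Figure D4:**
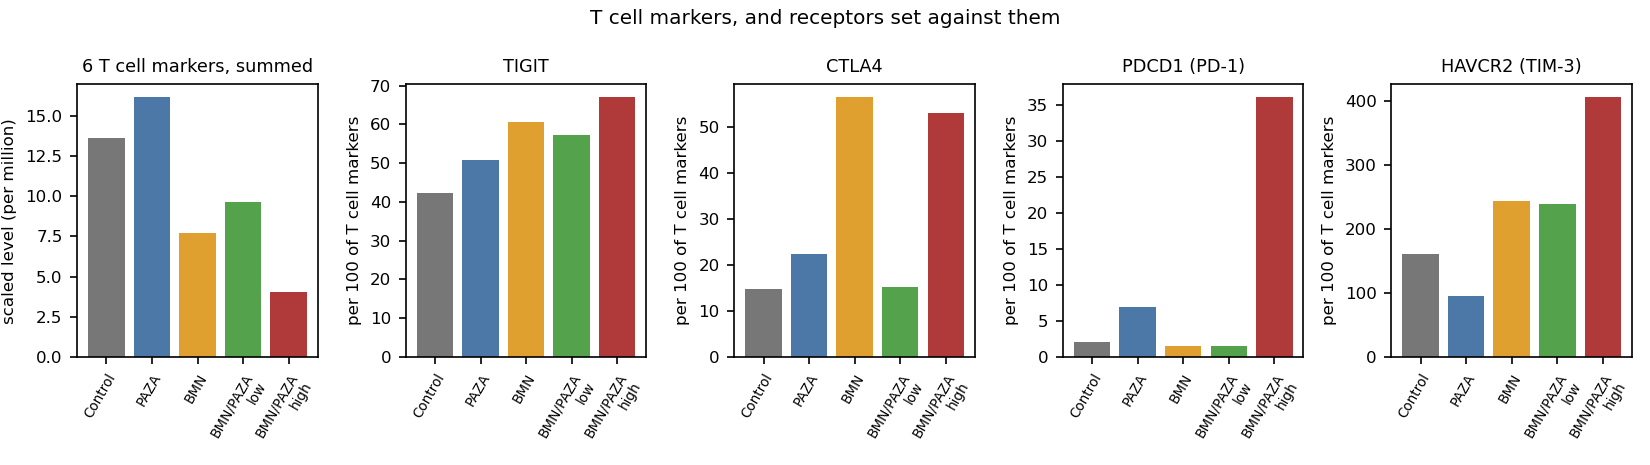
Summed level of 6 T cell markers (left) and 4 receptors per 100 of that sum (linear axes from 0) in the 5 libraries. The T cell sum runs from 4.04 with the high dose to 16.1 with PAZA, and PDCD1 per 100 stands at 36.0 with the high dose.

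For the antigen-presenting side, dendritic cell markers (6 of 6) summed to 5.02 in Control, 6.64 with PAZA, 7.66 with BMN, 6.34 with the low dose and 5.63 with the high dose. CD80 per 100 of that sum was 69.98 in Control, 67.1 with PAZA, 104 with BMN, 30.2 with the low dose and 67.3 with the high dose, again highest with BMN and lowest with the low dose. H2-AB1, an MHC class II gene of the same cells, stood at 118 in Control, 164 with PAZA, 122 with BMN, 50.1 with the low dose and 64.8 with the high dose. Its partner chain H2-AA was at 22.5, 38.8, 28.5, 18.3 and 24.3, slightly above Control with the high dose (0.11), where H2-AB1 was below it (-0.85). Neutrophil markers (4 of 5) summed to 72.8, 122, 64.6, 121 and 232 and fibroblast markers (5 of 5) to 305, 519, 791, 312 and 340 in Control, PAZA, BMN, low dose and high dose. Most of the neutrophil sum was S100A8 (35.8 in Control and 132 with the high dose) and S100A9 (30.8 and 93.2). The other neutrophil markers differed less, with CSF3R at 2.71 and 2.64 and CXCR2 at 3.42 and 4.55 in these libraries. The part of these shifts in the checkpoint genes' values was not tested.

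The genes between interferon gamma and PD-L1 were read next to CD274, and all 13 of the list were measured. IRF1, which binds the CD274 promoter, was at 198 in Control, 79.1 with PAZA, 94.6 with BMN, 81.6 with the low dose and 85.1 with the high dose. In the tables used, it was lower past 2-fold in all 4 treated libraries. All 4 comparisons use the same Control library, whose values stand in 1 table only. JAK1 was at 98.4, 82.0, 104.7, 83.8 and 73.6 in the same order, past 2-fold in none. NLRC5, the transactivator of MHC class I, was at 64.6, 25.8, 40.2, 28.2 and 17.7 and was past 2-fold in all but BMN in the tables used. PTPN2, a phosphatase that restrains this signal, was at 117, 104, 118, 84.7 and 86.4 in the tables used. In the table of PAZA with the low dose, PTPN2 stood at 47.2 FPKM in PAZA and 91.3 FPKM in the low dose, the reverse order. In counts, 2 of 13 were past 2-fold lower with PAZA, 1 with BMN and 2 with each dose of BMN/PAZA, and 0 were higher, where 3.53%, 2.25%, 3.54% and 4.95% of all symbols were lower with PAZA, BMN, the low dose and the high dose.

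As with CD274, these genes carried the disagreement between tables. Of the 13, 7 were off a constant (JAK2, STAT3, IRF1, IRF2, SOCS1, NLRC5 and PTPN2). Read from the table of the low dose with BMN, the low-dose levels were 163 for IRF1 and 56.4 for NLRC5, each 2-fold the level used, with differences from Control of -0.28 and -0.19. With the low dose from the table with PAZA, these differences were -0.67 and -0.66, so neither gene was past 2-fold in its other tables. Of 14 other coinhibitory genes and of 11 partners of the members, 0 were off a constant. Among all shared symbols 2.67% were, so lists this small would often hold 0.

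Of the other coinhibitory genes, 14 of 16 were measured. Of these, 0 were past 2-fold higher against Control in any treated library, and PVRIG was the single gene lower, with PAZA and with both doses, a share of 1 in 14 that is read against the 3.53%, 3.54% and 4.95% of all symbols. LILRB4A, an inhibitory receptor of myeloid cells, was the most abundant at 137 in Control, 162 with PAZA, 138 with BMN, 115 with the low dose and 112 with the high dose. VSIR (VISTA) stood at 25.9, 18.1, 29.9, 30.5 and 20.8. Of 11 ligands and receptors that pair with members, CD226 and CD28 were past 2-fold lower with PAZA, BMN and the high dose, H2-AB1 was lower with the low dose, and SIRPB1A was the single gene higher, with BMN. Of all symbols, 3.53%, 2.25%, 3.54% and 4.95% were lower with PAZA, BMN, the low dose and the high dose, and 4.66% were higher with BMN. THBS1, a ligand of CD47, was at 35.6, 49.8, 60.6, 35.0 and 49.4.

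Costimulatory genes (10 of 12 measured, with CD70 and CD40LG listed at 0 in the table of BMN with the low dose and in no other) had 0 calls against Control with PAZA, 1 with BMN (TNFRSF9, lower), 2 with the low dose (CD40 higher, CD27 lower) and 2 with the high dose (TNFRSF18 and CD40, lower). Beside these stand the shares of all symbols given above, 3.47% higher and 3.53% lower with PAZA, 4.66% and 2.25% with BMN, 3.65% and 3.54% with the low dose, and 3.2% and 4.95% with the high dose, where 1 call among 10 genes is already a larger share. CD40, the receptor through which T cells license antigen-presenting cells, was at 2.66 in Control, 3.44 with PAZA, 5.14 with BMN, 7.27 with the low dose and 0.631 with the high dose. It was off a constant, and its difference from Control in the low dose was 1.18, or 2.09 from the table with BMN and 0.81, short of 2-fold, from the table with PAZA. With PAZA it was 0.28, or 1.12 from that last table. TNFRSF9 (4-1BB) was at 27.0 in Control, 22.7 with PAZA, 11.9 with BMN, 29.0 with the low dose and 14.4 with the high dose. Its ligand TNFSF9 was at 9.95, 9.86, 6.66, 10.4 and 7.95, and ICOSL was at 6.24, 7.26, 7.61, 7.504 and 10.8. Of the signalling genes of the receptors (6 of 7), PTPN6 (off a constant) was at 55.4, 40.7, 56.5, 30.2 and 37.8, PTPN11 at 51.0, 39.9, 71.1, 33.8 and 42.04, and CBLB at 7.75, 6.08, 8.37, 8.46 and 5.84, and LCK was past 2-fold below Control with the low dose and listed at 0 with the high dose. The low-dose level of PTPN6 was the lowest of the 5 only in the table used and came to 60.4 or 63.96 in the other tables, above every other library. Of the factors linked to T cell exhaustion (8 of 9), EOMES was at 21.2, 13.6, 24.5, 18.2 and 15.0, NR4A2 at 4.81, 2.62, 3.14, 2.84 and 2.75, and BATF at 1.94, 6.25, 3.68, 1.98 and 1.29. EOMES stood above the summed T cell markers in every library but PAZA, and which cells carried it was not tested. NR4A1 and BATF were the 2 past 2-fold higher with PAZA, where 3.47% of all symbols were. NR4A1 was at 0.547 in Control and at 2.13, 2.01, 2.03 and 1.89 in the treated libraries, so its differences (1.017, 0.96, 0.97 and 0.90) lay close together on both sides of the 2-fold line.

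Among 10091 symbols at a level of 1 or more, the profiles nearest to CD274 over the 5 libraries, in the tables used, were those of WRAP53 and GTDC1, at a mean absolute distance of 0.06 and 0.07 on the log2 scale. These distances rest on the low-dose CD274 level of 10.4 and were not computed with the 20.7 or 18.7 of the other tables. WRAP53 was at 5.85, 3.68, 1.93, 2.71 and 1.96, and GTDC1 was at 28.0, 17.9, 13.7, 16.6 and 13.2. For CD47 they were ALKBH3 and CAR2, both at a distance of 0.02. ALKBH3 was at 11.6, 11.3, 11.2, 15.0 and 13.02, and CAR2 was at 1.25, 1.22, 1.03, 2.02 and 1.58.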

How the data were processed

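Total RNA of mouse LLC was sequenced, per the labels, and the submitters' processing notes list HISAT2, StringTie and GRCm38 without versions. The authors deposited 5 tables of 2 libraries each, whose headers name no unit, and the deposited values were read as FPKM from their form. No columns of the authors' own comparisons were present, and 0 columns were left unmapped. In the low-dose column of the table of both doses, 11.0% of values above 0 had 6 significant digits or fewer as deposited and 99.99% did once divided by 3.6. Scaling removes any such common factor. Where a symbol was repeated (16 surplus rows in each table with the high dose), the row of highest mean value was kept.

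Each library was scaled to a sum of 1000000 over the 13979 symbols shared by 3 tables. Symbols at 0 in both libraries of a comparison were left out. A difference is log2(level + 1) in the first library minus the second, and a call is 2-fold. The constant between tables is the median ratio, with a tolerance of 0.5%. No test was run, because each group has 1 library, and the depth is unknown. The members and lists were chosen with earlier results of these data known. The genes named were the 10 members, for each pathway list the 3 of highest mean level and those past 2-fold in 3 or more of the 4 comparisons with Control, for each marker list the top 2 and those at 0, and for CD274 and CD47 the 2 nearest profiles. Other genes, such as SIRPB1A, LCK, NR4A1, CD40, CD27, TNFRSF18, IL2RA, H2-AA, KLRK1, GZMA, KLRD1, PRF1, CSF3R, CXCR2, CD3D, CD3E, CD4 and CD8A, were named after their values were seen. Some listed genes are not reported here. Scripts were tested on simulated data and used Python 3.11.15, numpy 2.4.6, pandas 2.3.3 and matplotlib 3.10.9. Alternatives were another pseudocount, a level filter, median-ratio scaling and other tables for a library.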

Additional observations from a re-analysis of the deposited data

Results flagged for a closer look

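CD80 and CTLA4 differed in direction between PAZA given without BMN and with it, with a value past 2-fold. Every other member but PDCD1 and TIGIT also had opposite signs, short of 2-fold in the tables used. The share of all symbols with opposite signs at any size was not computed. CD80 was 0.27 higher on the log2 scale in PAZA than in Control, and -1.62 in the low dose against BMN. CTLA4 was 0.62 in the first comparison and -1.11 in the second. They were flagged because the library with PAZA was above its partner in one comparison and below it in the other, past 2-fold in the second. Among 13885 symbols with both differences, 819 (5.9%) showed opposite directions with a value past 2-fold, as did 2 of the 9 checkpoint genes. For CTLA4 the value against BMN was -0.98 under median-ratio scaling and -0.81 as deposited, short of 2-fold. CD274 also had opposite directions, but the reverse way, below Control with PAZA and above BMN in the low dose. It was past 2-fold in the second comparison only when the low dose was not read from the table of both doses. It was -0.73 in PAZA against Control (-0.97 with PAZA from its other table), and against BMN it was 1.23 or 1.09 with the low dose from the table with BMN or with PAZA, where the value as reported was 0.32. As deposited, the values of CD274 were -0.63 and 1.33. The difference between the comparisons was not tested, since each group has 1 library.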

How the results depend on the processing

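No paired analysis was possible because each group has 1 library, and no replicate was left out for the same reason. The order of comparisons below is PAZA, BMN, low dose and high dose against Control, then low dose against BMN, low dose against PAZA, high dose against BMN, and low against high dose. With a pseudocount of 0.1 in place of 1, the checkpoint genes past 2-fold were 1, 3, 1, 3, 2, 4, 3 and 3, where the values as reported were 0, 1, 0, 1, 2, 0, 1 and 1, and all symbols past 2-fold were 2815, 2527, 2591, 2744, 2998, 2344, 2813 and 2608, where they were 978, 948, 994, 1115, 1260, 726, 1258 and 799. CD274 was called below Control with BMN and with the high dose at both pseudocounts. Scaling by the median ratio to Control left 1 gene in low dose against BMN, CD80, and in high dose against Control replaced CD274 (-0.90) by PDCD1 (1.08). With each library from the other table, low against high dose gave 3 genes (CD274, CD86 and PDCD1) and low dose against BMN also 3 (CD274 higher, CD80 and CTLA4 lower). With the low dose from the table with PAZA, low against high dose gave 2 (CD86 and PDCD1) and low dose against BMN again those 3. Of settings chosen after seeing the data, leaving out CD274 and CD86 gave 0 genes for BMN and for the high dose against Control. As deposited in 1 table, low dose against BMN gave 2 genes (CD274 higher at 1.33, CD80 lower), low dose against PAZA gave 1 gene (CD86), high dose against BMN 0, and low against high dose 5, all higher, in a table where the median of all symbols was 1.44. The filter on a level of 1 changed none of the 8 counts of checkpoint genes. Of 72 differences of members, 6 changed sign with the other tables, all of CD274 or CD86, and 3 with median-ratio scaling (CD47, TIGIT and HAVCR2). As deposited in 1 table, 6 of 45 did (CD274, CD47, CD80 and CTLA4 once each, CD86 in 2 comparisons). None of those past 2-fold as reported changed sign in any of these settings.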

Other observations

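The arithmetic seen for CD274 and CD86 in the table of PAZA with the low dose was shared by other symbols. Of 13142 symbols with a value above 0 in the 4 columns concerned, 337 had a PAZA value off the constant. Of these, 196 had a PAZA value equal to the low-dose value of the table of both doses, and among these 196 the low-dose value was 1.5 times the PAZA value of the table with Control for 166 and equal to it for 24. Of the 13 genes between interferon gamma and PD-L1, 7 were among the 196, and so were CD40, PTPN6, GZMA and KLRK1. Of the 6 measured T cell markers and of the 8 macrophage markers, 0 were. With 196 of 13142 symbols affected, lists this small would often hold 0. Symbols were counted as equal within 0.5%.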
